A study of Citrus sinensis with 12 samples.

Results

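Genes whose transcript level hardly moved were looked for in roots of sweet orange (Citrus sinensis) seedlings kept for 17 weeks at pH 3 or pH 4.8 with 0.5 or 300 µM CuCl2. A gene was taken as steady when its mean over all 12 libraries was at least 20 and under 500 FPKM and its highest FPKM was at most 1.2 times its lowest. FPKM, the fragments counted per kilobase relative to all fragments of the library, is a level corrected for gene length and sequencing depth. The genes were thus chosen by their FPKM in these same libraries. Only identifiers of the authors' annotation, starting with Cs or orange1.1t, were eligible. The rule held for 46 genes out of 5256 annotated genes in that range of levels, 18730 annotated genes and 20122 listed genes in all.

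The design crossed both pH values with both copper levels, and each of the 4 groups had 3 libraries, each from a pool of 4 seedlings. The groups are called control (pH 4.8, 0.5 µM copper, the levels that the labels name as control), acid (pH 3, 0.5 µM), copper (pH 4.8, 300 µM) and acid plus copper (pH 3, 300 µM). All 4 groups received some CuCl2, and no group was without it. In the titles the control samples carry 5 µM copper, but their treatment label says 0.5 µM and was followed. The labels give no cultivar, so the groups are described no further.

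Copper is a micronutrient that is toxic to roots in excess, and acid medium is a stress of its own. Transcripts that keep the same relative level through such stresses are of practical use because RT-qPCR, which measures single transcripts, needs reference genes as an internal standard. Actin, ubiquitin, tubulin and elongation factor genes are the customary plant choices, and such genes are known to shift with tissue and treatment. The files pair no identifier with a name or function, and 0 of the 20122 listed identifiers, the 46 included, were found in the RefSeq gene table for this species, so the genes are given by identifier and position. For the same reason the lists of customary reference genes, copper transport and acid response could not be filled, the tissue could not be checked against root markers, and no sequence is shown.

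Between 17710000 and 22780000 fragments stood behind a library, a depth read from the spacing of low FPKM values. At the median level of the steady genes, 34.6 FPKM, this depth gives 613 to 789 fragments per kilobase of transcript and a counting SD of 3.56% to 4.04% for a transcript of 1 kb. At the highest level, 285 FPKM, the counting SD is 1.24% to 1.41% for that length. FPKM is a share of the sequenced RNA. A steady FPKM therefore does not show a steady number of transcripts per cell, and in whole roots fewer cells of a type and less RNA per cell cannot be told apart.

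The same 12 FPKM values that chose the genes are described in the next paragraphs, so their closeness is a result of the choice and carries no test. The gene with the smallest range was Cs6g18030 on chromosome 6 (18326533 to 18331151, minus strand), with a highest value 1.12 times its lowest. Its FPKM was 32.79, 35.14 and 35.19 in the control libraries, 36.01, 35.17 and 36.52 in acid, 32.72, 34.85 and 33.11 in copper, and 36.45, 36.44 and 34.60 in acid plus copper. No group stood apart from all the others, but the acid libraries, from 35.17, all lay above the copper libraries, up to 34.85. The lowest values were shared by a control and a copper library. Group means ran from 33.6 ± 1.13 in copper to 35.9 ± 0.682 in acid (SD, n = 3 in each group).

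Cs9g18430 on chromosome 9 (17603970 to 17609442, minus strand) came next, also with a ratio of 1.12. It was at 23.99, 23.77 and 24.55 FPKM in control, 23.98, 26.21 and 24.37 in acid, 23.71, 25.11 and 23.41 in copper, and 26.01, 25.29 and 24.40 in acid plus copper. No group stood apart, and the highest single value was an acid library. Cs6g07590 on chromosome 6 (9380915 to 9384672, minus strand) was at 32.88, 31.68 and 33.58 FPKM in control, 34.29, 35.11 and 33.19 in acid, 31.71, 34.85 and 35.58 in copper, and 32.56, 33.26 and 32.46 in acid plus copper. Its extremes lay in a control and a copper library, at a ratio of 1.12. Cs6g16060 on chromosome 6 (16996938 to 17002309, plus strand) was at 41.02, 39.20 and 37.22 FPKM in control, 38.24, 37.53 and 40.80 in acid, 41.68, 41.69 and 37.12 in copper, and 40.37, 38.95 and 41.23 in acid plus copper. Here both the lowest and the highest value were copper libraries, so replicates of 1 group spanned the whole range.

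Among the steady genes 5 averaged 100 FPKM or more. Cs1g13530 on chromosome 1 (16592177 to 16597031, plus strand) was the most abundant, with a mean of 285 FPKM and a ratio of 1.14. It was at 284.31, 294.26 and 281.63 FPKM in control, 275.76, 285.35 and 290.45 in acid, 287.14, 291.65 and 288.82 in copper, and 280.06, 263.74 and 300.90 in acid plus copper. Both extremes lay in acid plus copper, and the group means of 287 ± 6.65 in control, 284 ± 7.46 in acid, 289 ± 2.28 in copper and 282 ± 18.6 in acid plus copper (SD, n = 3 in each group) differed by less than the spread in that group. Its SD over the 12 libraries, 3.35% of the mean, was the smallest of the 46.

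Cs5g01260 on chromosome 5 (247594 to 251090, plus strand) was second in level, with a mean of 193 FPKM. It was at 188.84, 191.32 and 191.83 FPKM in control, 176.22, 191.35 and 195.74 in acid, 200.96, 198.49 and 199.49 in copper, and 185.57, 200.11 and 198.71 in acid plus copper. The copper libraries lay within 198.49 to 200.96 and the control libraries below them, while a single acid library set the ratio of 1.14. Cs8g10770 on chromosome 8 (10047927 to 10050022) had a mean of 129 FPKM, with 120.97 and 141.97 as its lowest and highest values, both in acid plus copper. Cs4g05580 on chromosome 4 (3418995 to 3422732) had a mean of 104 FPKM and ran from 96.44 in a control library to 113.75 in an acid plus copper library. For both genes the ratio was 1.17 to 1.18.

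At the other end of the range of levels the members lay next to the lower bound of the rule. Cs6g21470 on chromosome 6 (20595873 to 20601985) had a mean of 20.05 FPKM, Cs5g24850 on chromosome 5 (27675366 to 27681491) of 20.3, Cs3g24290 on chromosome 3 (26327920 to 26331324) of 20.4 and Cs7g27860 on chromosome 7 (28536340 to 28539109) of 20.9. Their ratios were 1.181, 1.181, 1.172 and 1.199. For Cs6g21470 the membership rests on the bound: without any 1 of 5 libraries its mean was 19.89 to 19.99, below 20.

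The other genes with the smallest ranges were Cs1g26430 on chromosome 1 (28480830 to 28488189), Cs3g24540 on chromosome 3 (26499470 to 26502165), orange1.1t00974 on unplaced sequence (14932530 to 14935016) and Cs1g21800 on chromosome 1 (24590004 to 24596545). Their means were 101, 72.7, 34.2 and 49.6 FPKM, and their ratios ran from 1.148 to 1.152. The acid libraries of Cs1g26430, at 104.10 to 106.50 FPKM, lay above all its other libraries. The same held for the control libraries of Cs1g21800, at 51.35 to 52.93 FPKM. The flattest group means of all belonged to orange1.1t00974, at 33.9 ± 1.63 in control, 34.1 ± 0.942 in acid, 34.3 ± 2.43 in copper and 34.3 ± 1.80 in acid plus copper (SD, n = 3 in each group). The highest of these was 1.01 times the lowest, less than the spread within any of the groups.

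**Figure D1:**
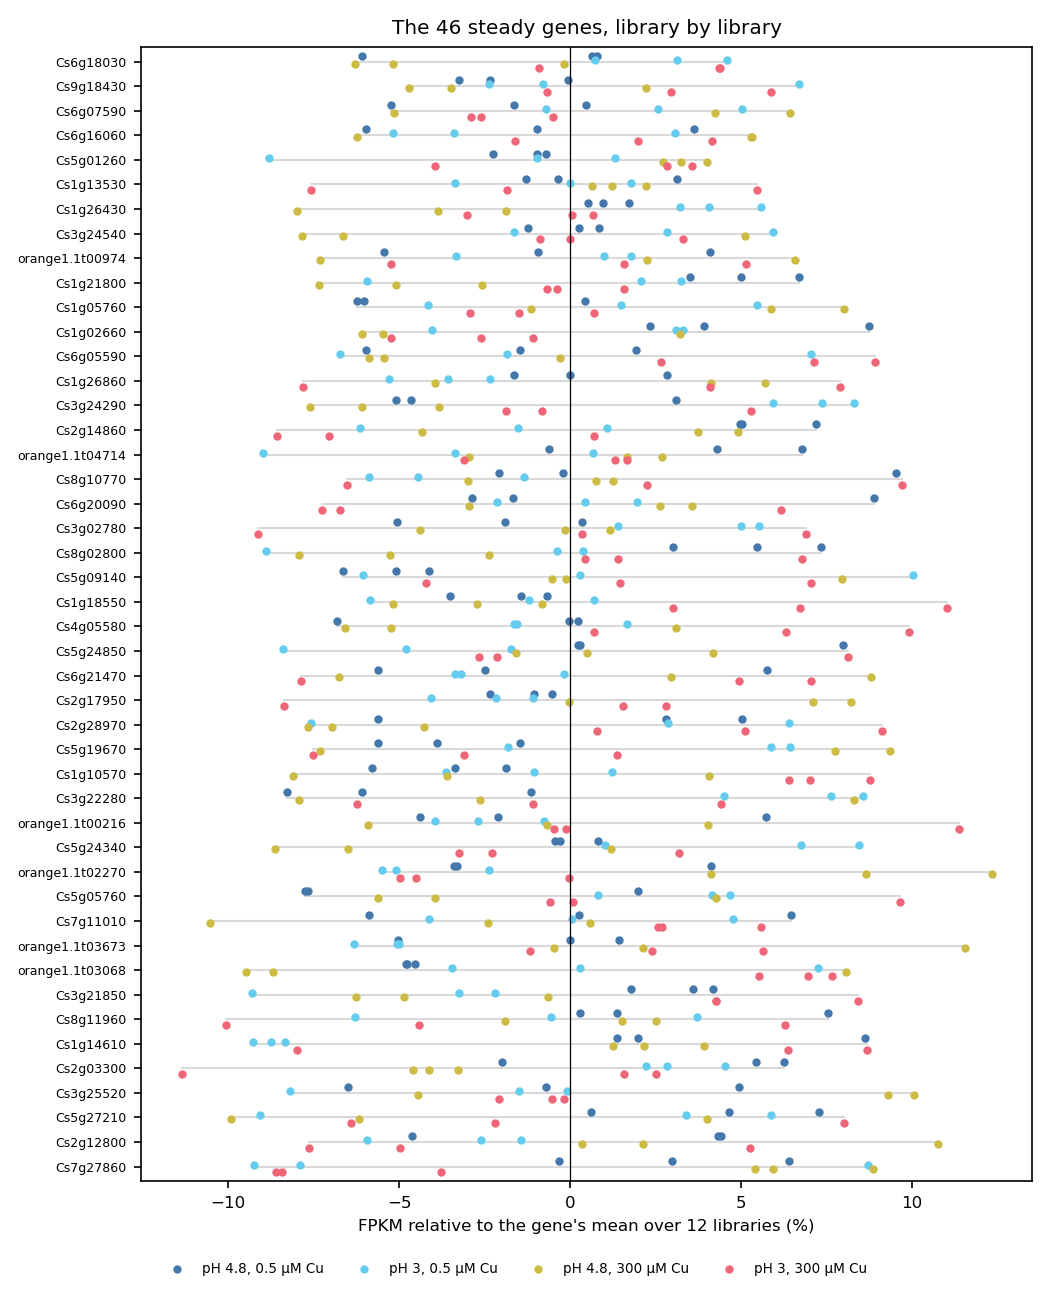
FPKM of each of the 46 steady genes in every library, as percent above or below the gene's mean over 12 libraries. A row is a gene, ordered by the ratio of its highest to its lowest value, a point is a library coloured by group, and the grey line runs from the lowest to the highest library. In most rows the 4 colours are mixed, and the ratio grows from 1.116 at the top to 1.199 at the bottom.

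Over all 46 genes the mean level ran from 20.05 to 285 FPKM with a median of 34.6, the ratio of highest to lowest from 1.116 to 1.199 with a median of 1.179, and the SD over the 12 libraries from 3.35% to 7.24% of the mean with a median of 5.06%. The median SD within groups was 4.46% of the mean. Exon lengths were not given in the sources used here, and the counting SD of a single gene was therefore not computed. Group means of a gene differed by a ratio of 1.013 to 1.147, with a median of 1.082, and in 30 of the 46 genes the highest group mean was within 10% of the lowest, in 7 within 5%.

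The members shared no common highest or lowest treatment. The highest group mean was control in 12 genes, acid in 10, copper in 13 and acid plus copper in 11, and the lowest was control in 10, acid in 15, copper in 15 and acid plus copper in 6. By single library, the lowest value fell in the copper group for 16 genes and the highest in acid plus copper for 15. The highest value fell most often in control replicate 1, copper replicate 2 and acid plus copper replicate 1, with 7 genes each, and the lowest in copper replicate 1, also with 7. No library held the extreme of more than 7 genes in either direction.

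In 8 steady genes the 3 libraries of 1 group all lay above the other 9, and in 1 gene they all lay below. Among all annotated genes of this level range the same was true of 46.3% and 43.8%. The small size of these separations is fixed by the rule, and their number is a description. Cs1g10570 on chromosome 1 (12757218 to 12767999), the longest of the 46, was at 46.64, 47.85 and 48.58 FPKM in control, 47.71, 48.99 and 50.12 in acid, 45.50, 47.73 and 51.52 in copper, and 52.99, 53.85 and 52.69 in acid plus copper. Its acid plus copper libraries were the 3 highest, while its copper libraries held both the lowest and the next highest value. For orange1.1t02270 on unplaced sequence (34279228 to 34286320) the copper libraries, at 108.03, 104.49 and 100.15 FPKM, lay above the 9 others, which ran from 90.88 to 100.13. The gap between the groups was thus 0.02 FPKM wide. Cs1g14610 on chromosome 1 (17919908 to 17924022) was the gene with a low group: acid libraries were at 63.49, 63.12 and 63.77 FPKM and the others at 64.03 to 75.63, the nearest being acid plus copper replicate 3. These 3 genes were chosen after their values were seen.

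All 46 steady genes entered the fit across 19204 genes in limma on log2(FPKM + 1), and none was called in any of the 5 tests at an adjusted p under 0.05. The rule used these same values and holds a difference between 2 groups to at most 0.26 log2 units, a bound that does not cover the interaction, so the absence of calls is a description only. Without copper replicate 3, limma called 3 of them for low pH at 300 µM copper. Of all tested genes limma called 36.3% for copper at pH 3, 52% for copper at pH 4.8, 34.8% for low pH at 0.5 µM copper, 42.4% for low pH at 300 µM copper and 20.8% for the copper by pH interaction. Among annotated genes of the same level range these shares were 47.6%, 64.6%, 46.6%, 50% and 27.5%. At an unadjusted p under 0.05 limma gave 2 steady genes in each test except low pH at 300 µM copper, where it gave 3. The share of all genes at that unadjusted threshold was not computed. The rule used the same values, so these counts are a description only.

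The differences of the members bracketed 0 in each test. Copper at pH 3 gave -0.11 to 0.16 log2 units with a median of 0.01, copper at pH 4.8 gave -0.15 to 0.13 with a median of -0.01, low pH at 0.5 µM copper gave -0.19 to 0.17 with a median of -0.01, and low pH at 300 µM copper gave -0.19 to 0.16 with a median of 0.00. The interaction ran from -0.19 to 0.25 with a median of 0.02. The median size of a difference was 0.05 to 0.06 for the members in the first 4 tests, where the annotated genes of the same level range had 0.26 to 0.38. The rule bounds the differences of a member between groups, so their smaller size follows from the choice. The median SE of a member's difference was 0.07 in those tests. The tests share libraries with each other, so they do not count as separate looks at a gene.

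The members with the largest differences illustrate how little the rule lets through. Cs7g27860 was lower in acid plus copper, at 19.13, 20.10 and 19.09 FPKM, than in copper, at 22.02, 22.74 and 22.13, which is -0.19 log2 units (SE 0.08, adjusted p = 0.074 in limma, with all 3 libraries on the lower side). Cs1g14610 was lower in acid than in control, where it was at 70.97, 70.53 and 75.59 FPKM, by -0.19 (SE 0.07, limma adjusted p = 0.063). Neither passed the threshold, although the 2 groups did not overlap in either case. Cs3g21850 on chromosome 3 (24659064 to 24665306) had the highest interaction value, 0.25 (SE 0.09, limma adjusted p = 0.078): it was at 27.56, 25.83 and 27.86 FPKM in acid, 30.88, 29.70 and 29.70 in acid plus copper, 29.67, 28.99 and 29.51 in control, and 28.30, 27.10 and 26.70 in copper. Neither copper difference passed the threshold (limma adjusted p = 0.096 at pH 3 and 0.22 at pH 4.8), and the interaction did not either.

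**Figure D2:**
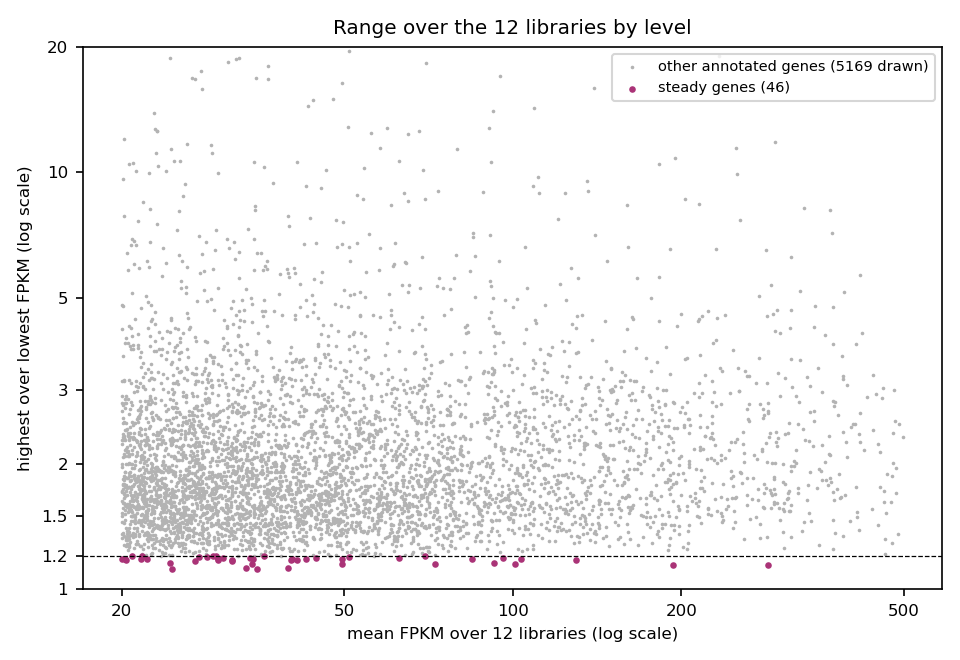
Ratio of the highest to the lowest FPKM over the 12 libraries against mean FPKM, both on log axes, for annotated genes with a mean of 20 to under 500 FPKM. Steady genes are purple, the dashed line is the limit of 1.2, and 41 genes with a ratio above 20 or a library at 0 are not drawn. The steady genes form the lower edge of a continuous cloud whose median ratio is 1.86.

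The limit of 1.2 cut through a continuous distribution. In the stretch of 0.05 below the limit lay 38 annotated genes of this level range, in the stretch of 0.05 above it 80, and in the next stretch, up to 1.3, 131. The median over the 5256 genes was 1.86 and the lowest 1% ended at 1.204. Just inside lay Cs5g27210 on chromosome 5 (29850070 to 29854954), Cs2g12800 on chromosome 2 (9611207 to 9618274) and Cs7g27860, with ratios of 1.1991, 1.1992 and 1.1994. Just outside lay Cs5g02970 on chromosome 5 (1456555 to 1460710) at 1.2004, with 42.62 to 51.16 FPKM, Cs9g06080 on chromosome 9 (3676846 to 3682587) at 1.2013, with 21.11 to 25.36 FPKM, and Cs2g21740 on chromosome 2 (18835192 to 18840152) at 1.2022, with 49.90 to 59.99 FPKM. Genes on both sides of the line had like spreads, with an SD over the libraries of 5.52% to 7.24% of the mean inside and 5.14% to 5.90% outside.

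Steady genes were found at low and at high levels of the range. They made up 1.01% of 1591 genes at 20 to under 30 FPKM (16 genes), 1.24% of 1447 at 30 to under 50 (18 genes), 0.583% of 1201 at 50 to under 100 (7 genes) and 0.492% of 1017 at 100 to under 500 (5 genes). The median ratio of all genes in these classes was 1.82, 1.82, 1.86 and 2.03. Of the 102 annotated genes averaging 500 FPKM or more, none had a ratio of at most 1.2, and the steadiest of them, Cs6g01310 on chromosome 6 (544535 to 546997, mean 658 FPKM), reached 1.221. Below 20 FPKM a ratio of at most 1.2 was met by 14 of 13372 annotated genes. None of the 90 loci without an annotated identifier in this level range met it, and the closest, on chromosome 2 (1681999 to 1683601, mean 72.2 FPKM), had a ratio of 1.29.

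How the spread within groups bore on the choice was seen by applying the same limit group by group, an alternative added after the data were seen. Within the 3 control libraries alone 4160 of the 5256 genes had a ratio of at most 1.2, within acid 4131, within copper 3557 and within acid plus copper 2109. In all 4 groups at once it was 1351 genes. Using group means in place of single libraries, 531 genes had a ratio of at most 1.2 between the highest and the lowest group. The acid plus copper group, in which the median SD of genes of this level range was 11.3% of the mean against 5.89% to 7.15% in the other groups, thus let through the fewest genes. With replicate 2 of acid plus copper left out, the full rule held for 82 genes, and with replicate 1 or 3 left out for 63. The part of a single library in the spread of that group was not tested. For the steady genes themselves the median SD was 3.90% in that group and 3.48% to 4.42% in the others. These values were kept low by the rule in every group and are a result of the choice. The part of the wider spread in acid plus copper in which genes met the rule was not tested.

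A choice on fewer libraries was described by applying the rule to 8 libraries and reading the ratio in the 4 libraries, 1 per group, with the remaining replicate number. Without replicates 1 the rule held for 94 genes, and 65 of them (69.1%) had a ratio of at most 1.2 in the 4 unused libraries, against 9.21% of all 5255 genes of the level range. Without replicates 2 it was 70 of 127 (55.1%) against 8.04%, and without replicates 3 it was 65 of 136 (47.8%) against 7.94%. Since a gene steady over all 12 libraries is steady in any 8 of them, apart from the bound on the mean, 46, 45 and 45 of the genes chosen and counted here were members of the 46, whose ratio in the unused libraries the full rule had fixed. The shares therefore describe a choice on 8 libraries and give no support to the 46. The median ratio in the unused libraries was 1.171, 1.189 and 1.206 for the chosen genes and 1.602 to 1.626 for all genes of the level range. The largest ratio that a chosen gene reached in the unused libraries was 1.401, 1.560 and 1.557. Genes are not replicates and the libraries of 1 number share no source by their labels, so these shares are given without a test.

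**Figure D3:**
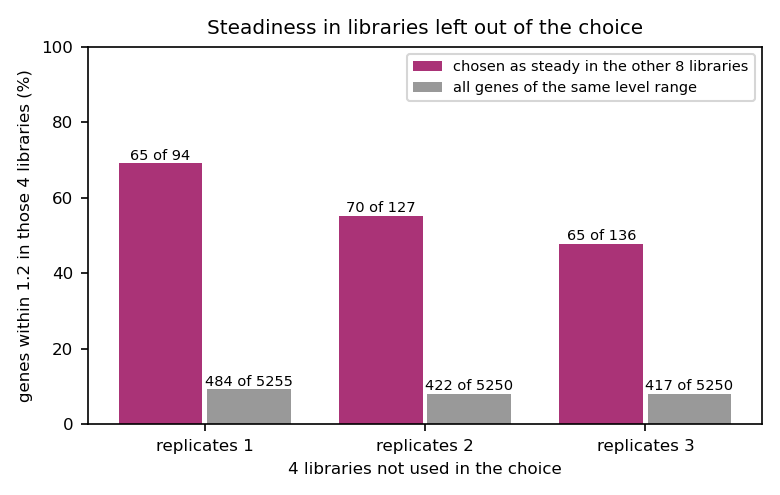
Percent of genes whose highest FPKM was at most 1.2 times the lowest in 4 libraries not used in the choice, for genes chosen as steady in the other 8 libraries (purple) and for all annotated genes of the same level range (grey). Labels over the bars give the genes counted. The purple bars stand at 69.1%, 55.1% and 47.8% and the grey bars at 7.94% to 9.21%, and the genes counted in the purple bars include 46, 45 and 45 of the 46 genes chosen on all 12 libraries.

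Position and length were not used by the rule. The listed span, from start to end with introns included, had a median of 4872 bp for the steady genes (1573 to 10782 bp) and of 3283 bp for all annotated genes of the level range. Spans of at least 2 kb belonged to 45 of the 46 steady genes (97.8%) and to 77.0% of the 5256 genes, and spans of 4 to under 8 kb to 31 (67.4%) and 31.1%. The share of steady genes was 0.0827% under 2 kb, 0.570% at 2 to under 4 kb, 1.55% at 4 to under 6 kb, 2.76% at 6 to under 8 kb and 0.649% from 8 kb. Over the same classes the median ratio of all genes was 2.49, 1.86, 1.67, 1.61 and 1.67. Longer transcripts gather more fragments at the same FPKM, and the part of counting in this difference was not tested. The 1 steady gene under 2 kb was Cs6g20090 on chromosome 6 (19726066 to 19727638, minus strand), with a mean of 29.8 FPKM and a ratio of 1.17.

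**Figure D4:**
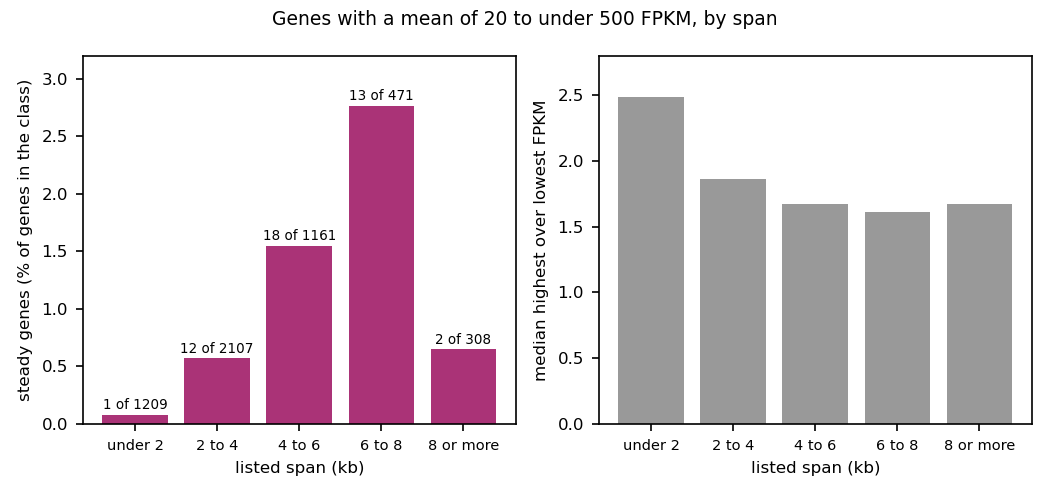
Left, steady genes as percent of annotated genes with a mean of 20 to under 500 FPKM, by class of listed span, with the genes counted over the bars. Right, the median ratio of highest to lowest FPKM of all genes in each class. The share of steady genes was 0.0827% under 2 kb and 2.76% at 6 to under 8 kb, and the median ratio was 2.49 and 1.61.

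The steady genes lay on each of the 9 chromosomes and on unplaced sequence. Chromosome 1 held 9 of the 46 (19.6%, against 9.27% of the 5256 genes), chromosome 5 held 7 (15.2% against 12.7%), chromosomes 3 and 6 held 6 each (13.0% against 9.89% and 8.58%), and chromosome 2 held 5 (10.9% against 11.6%). Chromosomes 4 and 9 held 1 each (2.17% against 8.58% and 6.93%), chromosome 7 held 2 (4.35% against 12.3%) and chromosome 8 held 3 (6.52% against 7.91%). On unplaced sequence there were 6, all with orange1.1t identifiers (13.0% against 12.2%). The minus strand held 27 of the 46 and 48.3% of the genes of the level range. No chance test was run on these counts.

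No steady gene was next to another in the listed order. The closest were Cs3g24290 and Cs3g24540 on chromosome 3, 168145 bp apart with 22 listed genes between them, followed by Cs1g26430 and Cs1g26860 on chromosome 1, 278737 bp apart. The 92 listed neighbours of the steady genes, none of them steady by the rule, included 28 annotated genes of the same level range. Their median ratio was 1.84, against 1.85 for the neighbours of all genes of that range, a set that was not cleared of steady genes. Of the 28, 9 (32.1%) had a ratio of at most 1.5, against 20.9%. The difference between these shares was not tested. A single steady gene overlapped another listed gene: orange1.1t03068 on unplaced sequence (47681467 to 47685956, mean 50.9 FPKM) shared 628 bp with orange1.1t03069 on the opposite strand, which had a mean of 1.903 FPKM, and the strand setting of the counting was not given in the sources used here.

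Which genes are steady depended on the scale of the libraries. FPKM as deposited summed to 536139 to 597341 per library over the listed genes. When the libraries were brought to equal sums, 41 genes met the rule and 11 of them were among the 46 (23.9% of the 46 and 26.8% of the 41). With equal medians over the tested genes 35 met it, 20 of them among the 46 (43.5% and 57.1%), and under quantile normalization 51 met it, 24 of them among the 46 (52.2% and 47.1%). The number of steady genes was therefore about the same on each scale while their identity was not. The 46 genes moved only slightly in size: their median ratio was 1.179 as deposited, 1.229 with equal sums, 1.217 with equal medians and 1.198 under quantile normalization, and the widest single ratio on any of these scales was 1.31.

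**Figure D5:**
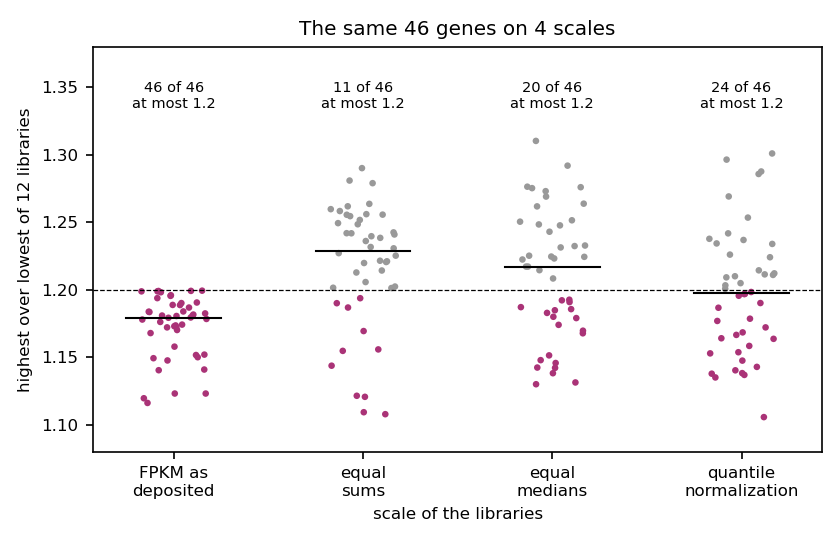
Ratio of the highest to the lowest value over the 12 libraries for the 46 genes steady in FPKM as deposited, on 4 scales. A point is a gene, purple where the ratio is at most 1.2 (dashed line) and grey above it, and the black bar is the median. Of the 46 genes 11 stayed within the limit with equal sums, 20 with equal medians and 24 under quantile normalization.

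On all 4 scales 2 genes kept a ratio of at most 1.2. One was orange1.1t04714 on unplaced sequence (74852844 to 74857829, minus strand), at 33.63, 31.30 and 32.85 FPKM in control, 31.71, 28.67 and 30.44 in acid, 30.57, 32.34 and 32.02 in copper, and 32.02, 31.91 and 30.52 in acid plus copper. Its ratio was 1.17 in FPKM as deposited, 1.17 with equal sums, 1.14 with equal medians and 1.14 under quantile normalization. The other was Cs8g02800 on chromosome 8 (1181230 to 1185323, minus strand), at 43.29, 41.55 and 42.54 FPKM in control, 40.49, 40.18 and 36.75 in acid, 38.21, 39.38 and 37.14 in copper, and 40.90, 43.07 and 40.51 in acid plus copper. Its ratios in the same order were 1.178, 1.144, 1.187 and 1.153. The control libraries of Cs8g02800 all lay above its copper libraries, with a difference of -0.15 log2 units for copper at pH 4.8 (SE 0.07, adjusted p = 0.08 in limma). Its control libraries also all lay above its acid libraries. Its acid plus copper libraries, from 40.51 FPKM, all lay above its acid libraries, up to 40.49, and above its copper libraries. The interaction value of Cs8g02800 was 0.23 (SE 0.09, limma adjusted p = 0.11), and none of its tests passed the threshold. The level of orange1.1t04714 showed no such separation between control and copper.

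As a group the 46 genes can be set against the other genes library by library. Their summed FPKM ran from 2405 to 2453 over the 12 libraries, which was 0.408% to 0.457% of the summed FPKM of a library. The median member differed from its own mean by -1.36% in copper replicate 1 and by 2.11% in acid plus copper replicate 1, the lowest and highest of the 12 libraries. The median annotated gene of the level range differed from its own mean by 1.32% to 1.74% in the control libraries and by -4.64% to -0.95% in the 9 others. For the steady genes the control libraries, at -1.04% to 0.27%, lay inside the range of the others. The rule holds each member near its own mean in every library, so these small offsets are a result of the choice.

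Ratios between 2 genes of the same library do not depend on a factor applied to the whole library, such as equal sums or equal medians, though quantile normalization can move them. Over the 1035 pairs of steady genes the SD of the log2 ratio had a median of 0.10 (0.04 to 0.18). Over the pairs of annotated genes of the level range that were above 0 in all libraries the median was 0.45. The rule bounds the range of every member, so the lower spread of the member pairs follows from the choice. In 171 of the 1035 pairs (16.5%) the highest ratio over the 12 libraries was at most 1.2 times the lowest. Ranked by the SD of the log2 ratio, the closest pair was Cs4g05580 and Cs6g18030. Its FPKM ratio was 2.94, 2.95 and 2.94 in control and 2.92, 2.89 and 2.79 in acid. In copper it was 3.00, 3.06 and 2.92, and in acid plus copper 3.02, 3.12 and 3.01. The ratio of this pair was lowest in acid and highest in acid plus copper, by a factor of 1.12 from the lowest to the highest library. The widest pair by the same SD was Cs7g27860 and orange1.1t03068, whose ratio ran from 0.349 to 0.489. Ranked by the highest over the lowest ratio, other pairs were closer and wider than these. By its mean SD against the other members Cs9g18430 was the closest to the rest (0.09), followed by Cs1g13530 and Cs6g18030, and Cs7g27860 the farthest (0.13). These pairs were picked for their values, and the figures describe these 12 libraries only.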

How the data were processed

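The authors deposited, per the file headers, a table per library with FPKM to 2 decimals, chromosome, start, end and strand for the same 20122 genes. Per the submitters' processing notes, the tools were StringTie 1.3.4d, DESeq2 1.22.1, featureCounts 1.6.2, fastp 0.19.3 and HISAT2 2.1.0, whose roles the notes leave out. Build, annotation, strand setting and the handling of reads with several positions were not given in the sources used here. Values of near-identical gene copies are therefore uncertain.

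Groups came from the treatment labels. Ratios and means were computed on FPKM as deposited. For the tests, genes reaching a group mean of 1 FPKM anywhere were fitted on log2(FPKM + 1), pseudocount 1, in limma 3.58.1 (R 4.3.3) with a mean per group and a variance trend, two-sided, with Benjamini-Hochberg adjustment over 19204 genes and a threshold of 0.05. The p-values measure the spread between pools. The fit and the depth search were tested on simulated data. Depth was found as the value at which FPKM of genes under 900 bp and under 6 FPKM came closest to whole fragments. Length here was the listed span, introns included. At that depth 76.1% to 79.0% of values were within 0.15 of a whole number, where evenly spread values give 30%. The depth was chosen for this closeness, so 30% is not the chance level for a chosen depth. Too few values were whole to rebuild counts. Counting SDs cover counting error only.

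The members and lists were chosen with earlier results of these data known. Genes named in the text were those with the 10 smallest ratios, the 4 highest and 4 lowest means, the 3 nearest the limit on either side, called genes with the largest differences (none) and adjacent steady genes (none). Others are said to be chosen after their values were seen, or are the extremes of a set. Alternatives were other limits, level ranges, scales, pseudocounts and filters, a replicate block and leaving out each library.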

Additional observations from a re-analysis of the deposited data

How the results depend on the processing

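The number of steady genes, 46 in the main setting, followed the limit: it was 8 at a limit lower by 0.05, 126 at a limit higher by 0.05 and 257 at 1.3. It was 531 with group means in place of libraries. Applied within groups, an alternative chosen after seeing the data, the limit held for 4160 genes in control, 4131 in acid, 3557 in copper, 2109 in acid plus copper and 1351 in all 4 groups. A wider level range, a pseudocount of 1, other scales and added loci gave 35 to 57 genes. Leaving out 1 library gave 47 to 82 genes, with 82 without acid plus copper replicate 2 and 74 without copper replicate 3. Leaving out a replicate number in every group gave 94, 127 and 136. A rule on extremes can only gain genes with fewer libraries, except through the level range.

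The count of 0 steady genes called by limma became 4 (copper at pH 3), 2 (copper at pH 4.8) and 2 (low pH at 0.5 µM copper) with equal medians, and 3 and 3 in both copper tests under quantile normalization. The limma fit was not run with equal sums. Equal medians shift copper at pH 3 by -0.11 log2 units for every gene before the pseudocount is added, and by less at low levels after it. Without 1 library the count was 0 to 1 for copper at pH 3 and for low pH at 0.5 µM copper, and 0 to 3 for low pH at 300 µM copper, with 3 without copper replicate 3. Deviations of same-numbered libraries correlated at -0.22 to 0.24, with a median of 0.06 and 7 of 18 pairs above 0.1. Those of differently numbered libraries correlated at -0.32 to 0.32, with a median of -0.06 and 5 of 36 pairs above 0.1. Whether replicate numbers pair the libraries was not tested. With the replicate block limma called 0 steady genes in each of the 5 tests. The counts over all genes stayed within 1.5 times of the main count in each alternative run. At the level of the lowest member, counting alone gives an SD of 4.68% to 5.31% for a transcript of 1 kb, and exon lengths are unknown.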
